A study of Bubalus bubalis with 8 samples.

Results

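The gene IDs described here were low or absent in the libraries of buffalo oocytes and 2-cell embryos and first reached a set level in the 4-cell or 8-cell library. There were 128 such gene IDs among the 18220 numbered IDs of a table of 28659 IDs. They were selected on FPKM (fragments per kilobase of transcript, scaled to library depth). Each had to be under 1 FPKM in the GV, MII and 2-cell libraries and at 10 FPKM or more in the 4-cell or 8-cell library. They are called early-onset IDs below. Low levels before the 4-cell stage, and a high level at the 4-cell or 8-cell stage, are therefore properties of the choice and not findings. The 16-cell, morula and blastocyst libraries did not enter the choice, and most of what follows is about them.

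The study sequenced RNA of water buffalo (Bubalus bubalis) oocytes and of embryos grown in vitro after parthenogenetic activation, in which an egg is made to develop without sperm. It had 8 libraries, 1 per stage: the immature GV (germinal vesicle) oocyte, the mature MII (metaphase II) oocyte, the 2-cell, 4-cell, 8-cell and 16-cell embryos, the morula, and last the blastocyst. The embryos carry no paternal genome, so genes expressed from the paternal allele alone are not represented as in a fertilised embryo. The sources used here do not give the breed, the oocyte donors or how many oocytes or embryos went into a library. With 1 library per stage no difference between stages has a replicate check, there is no test, and every count describes these libraries. Depth is unknown. FPKM is relative to its library and not an amount per embryo, so fewer transcripts per embryo and more of other transcripts cannot be told apart. The FPKM sum over all IDs ran from 8.92e+05 in the 8-cell to 2.50e+06 in the morula library. A fixed FPKM level is therefore not the same share of each library.

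In mammals the first cleavages run on RNA and protein stored in the oocyte. Control then passes to the embryo's own genome, a handover called embryonic genome activation. It begins with a small set of genes and continues with a broad wave, which in cattle is placed around the 8- to 16-cell stage. Some of the first transcripts are made only briefly, and others belong to programmes that continue into the morula, when the cells compact, and the blastocyst, when the inner cell mass and the trophectoderm (the future placenta) separate.

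The table pairs no ID with a gene symbol, coordinate or sequence, and 0 of the 28659 IDs matched a RefSeq gene table of buffalo. No function can therefore be given to any early-onset ID, no marker of oocyte, trophectoderm or inner cell mass could be checked, and no sequence is shown. Single IDs are used below only as examples of a pattern.

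The early-onset IDs fell into 3 onset classes by the values that chose them. A level of 10 FPKM was reached in the 4-cell library alone by 63 IDs, in both the 4-cell and the 8-cell library by 36, and in the 8-cell library alone by 29. Their median was 20.8 FPKM in the 4-cell library, with a highest value of 595 FPKM, and 11.1 FPKM in the 8-cell library, with a highest value of 487 FPKM. Before that, 56 of the 128 were listed at 0 in all 3 early libraries, and 76 were under 0.1 FPKM in all 3. An ID at up to 1 FPKM before the 4-cell stage is low rather than absent, and at unknown depth the difference between 0 and a low value cannot be read.

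The limits of the choice were filled closely on both sides. The lowest onset level among the chosen was 10.1 FPKM, in the 4-cell library, and the highest among those left out was 9.93 FPKM, in the 8-cell library. The highest early value of a chosen ID was 0.993 FPKM and the lowest early value that kept an ID out was 1.01 FPKM, both in the 2-cell library. The second ID below the onset limit, gene868, was at 9.69 FPKM in the 8-cell library and at 6168 FPKM in the morula, so IDs with a like course lie on both sides.

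**Figure D1:**
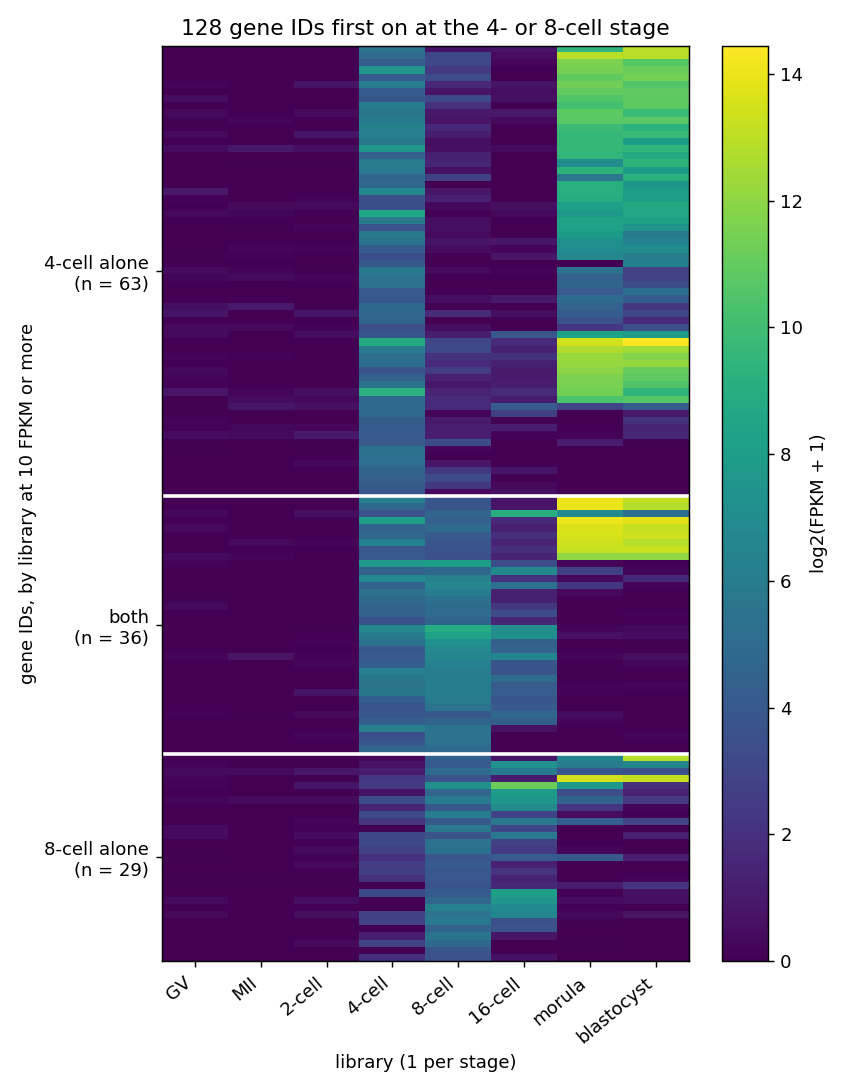
Levels of the 128 early-onset IDs (rows) in the 8 libraries (columns), as log2(FPKM + 1) by colour, grouped by the library in which they reached 10 FPKM. In the group of 63 IDs at the top the bright 4-cell column is followed by dark 8-cell and 16-cell columns and bright morula and blastocyst columns. In the groups of 36 and 29 IDs, 17 and 15 were at 10 FPKM or more in the 16-cell library. In the morula 25 and 18 of them were under 1 FPKM, beside 45.4% of all numbered IDs and 79.8% of the equally silent IDs not on by 8 cells.

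Few early-onset IDs were on at every later stage. At 10 FPKM or more through the 16-cell, morula and blastocyst libraries were 4 of the 128 (3.13%), beside 21.0% of all numbered IDs and 1.31% of the 5873 that were equally silent before and not on by 8 cells. In the same terms, 3160 of the 6424 numbered IDs that were also on at the 4-cell or 8-cell stage but had been present before (49.2%) were. The commonest defined course was a gap. Under 1 FPKM in the 16-cell library and at 10 FPKM or more again in the morula or blastocyst library were 43 IDs (33.6%), against 2.45% of all numbered IDs. A further 20 IDs (15.6%) were at 10 FPKM or more in the 16-cell library and under 1 FPKM in both later ones, against 1.30% of all numbered IDs. Another 15 (11.7%) were under 1 FPKM in all 3 later libraries, against 24.3% of all numbered IDs and 53.9% of the equally silent ones. The last 46 (35.9%, against 51.0% of all) met none of these definitions. In the morula 16 of the 46 were at 1000 FPKM or more, beside 450 of the 18220 numbered IDs. The gap rests on the 4-cell library and on IDs with low numbers, described further on. It was seen in 4.62% of the 65 IDs chosen by the 8-cell library without the 4-cell library, and in 17.6% of the IDs after those with a number under 1000 were left out.

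**Figure D2:**
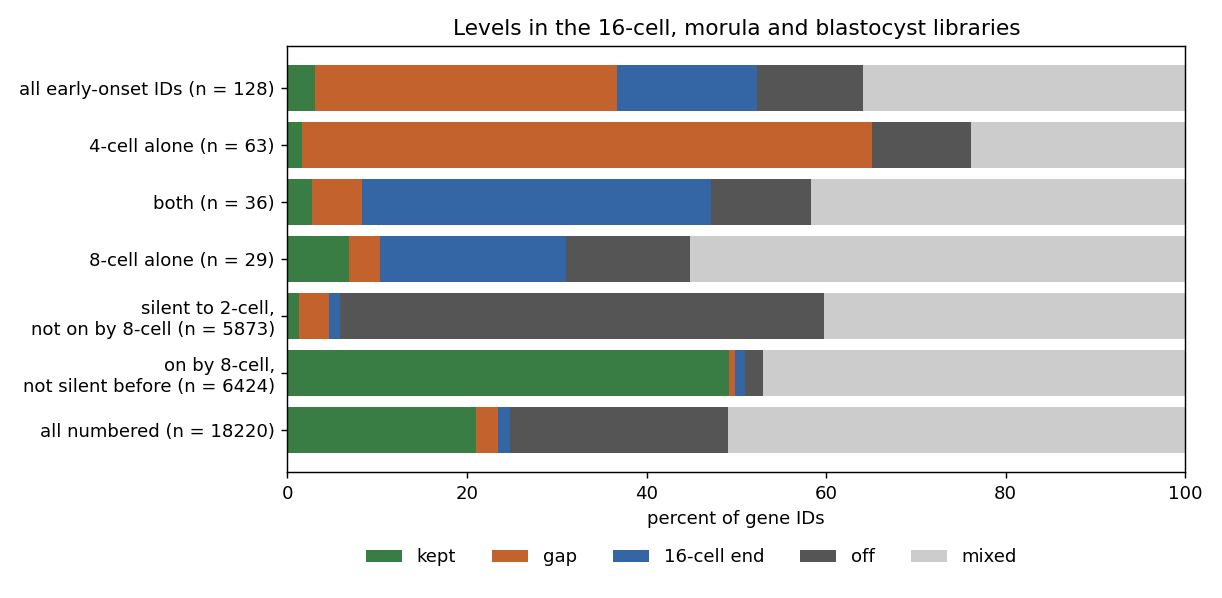
Percent of gene IDs by their course over the 16-cell, morula and blastocyst libraries, for the early-onset IDs, their onset classes and comparison groups. Kept means 10 FPKM or more in all 3, gap under 1 FPKM at 16 cells and 10 FPKM or more later, 16-cell end 10 FPKM or more at 16 cells and under 1 FPKM later, off under 1 FPKM in all 3. Gap takes 63.5% of the 4-cell alone class, 16-cell end takes 38.9% of the class on in both libraries, and kept is the main defined course only of IDs present before.

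Counted library by library, the share of early-onset IDs at 10 FPKM or more was near that of the table as a whole at the 16-cell stage and above it later. At 10 FPKM or more were 34 of 128 (26.6%) in the 16-cell library, where 32.0% of all numbered IDs were. The direction of that difference turned when IDs were chosen by the 8-cell library without the 4-cell library, at 49.2%, with 10 FPKM in both libraries, at 47.2%, and without numbers under 1000, at 37.4%. In the morula library 65 of 128 (50.8%) were, beside a background of 31.5%, and in the blastocyst library 59 of 128 (46.1%), beside 32.1%. A closer background is the 5873 numbered IDs that were equally silent up to the 2-cell stage and had not reached 10 FPKM by the 8-cell stage. Of these, 5.33% were at 10 FPKM or more in the 16-cell library, 5.93% in the morula and 7.88% in the last library. The early-onset IDs were above this second background in all 3 libraries.

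The course differed among the onset classes in these libraries. Of the 63 IDs on in the 4-cell library alone, 50 (79.4%) were under 1 FPKM in the 16-cell library. There 34.1% of all numbered IDs and 68.5% of the 5873 equally silent ones were. In the morula 48 of the 63 (76.2%) were at 10 FPKM or more. Of the 65 IDs on in the 8-cell library, with or without the 4-cell library, 32 were at 10 FPKM or more in the 16-cell library and 17 in the morula. Whether the classes differ was not tested, since each stage is 1 library.

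**Figure D3:**
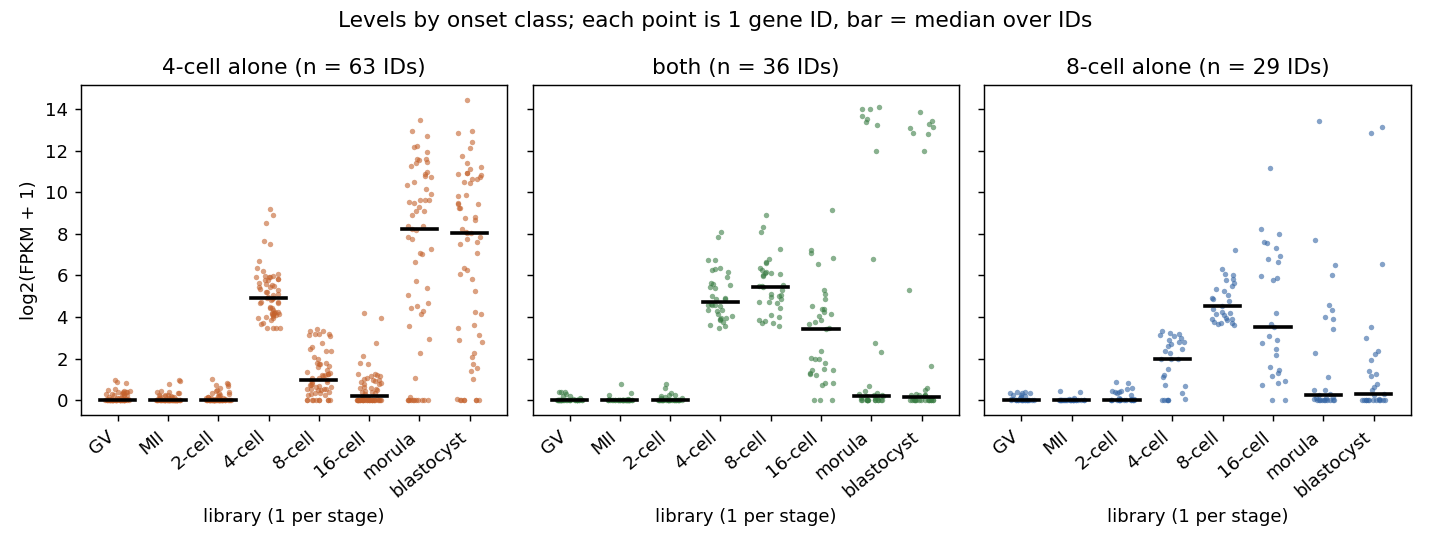
log2(FPKM + 1) of each early-onset ID in the 8 libraries, in 3 panels by onset class, with 1 point per ID and a bar at the median over IDs. The 4-cell alone class has medians of 29.6 FPKM in the 4-cell library, 0.158 FPKM in the 16-cell library and 304 FPKM in the morula, while the other classes have medians under 1 FPKM in the morula, with a few points at the top.

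Most of the 4-cell alone class had 2 separate periods of signal. A level under 10 FPKM in the 8-cell library is part of the definition of this class and not a finding. Its median was 29.6 FPKM in the 4-cell library, 0.986 FPKM in the 8-cell library, 0.158 FPKM in the 16-cell library, 304 FPKM in the morula and 262 FPKM in the blastocyst. In the morula library, 39 of the 63 were at 100 FPKM or more and 19 at 1000 FPKM or more. Of the 18220 numbered IDs, 1924 and 450 were, and of the 5873 equally silent ones not on by 8 cells, 83 and 21. The morula value exceeded the 4-cell value in 41 of 63. Thus for most of this class the 4-cell signal was the smaller of the pair.

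The ID with the highest 4-cell value shows this course. gene264 was at 0.858, 0.132 and 0.482 FPKM in the GV, MII and 2-cell libraries, then at 595, 1.58, 2.31, 2690 and 694 FPKM in the 4-cell, 8-cell, 16-cell, morula and blastocyst libraries. The 4-cell, morula and blastocyst libraries stand high and the 5 others are near or below 2 FPKM. The next, gene29398, was listed at 0 in the GV, MII and 2-cell libraries and was at 478, 7.72, 2.40, 11226 and 22271 FPKM in the 4-cell, 8-cell, 16-cell, morula and blastocyst libraries. Here too the 8-cell and 16-cell libraries lie far below the libraries on either side.

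The remaining 15 IDs of the class were under 10 FPKM in the morula. Their 4-cell values ran from 10.2 to 43.0 FPKM with a median of 18.1 FPKM. In the morula library 12 of the 15 were under 1 FPKM, and in the blastocyst library 9 were. Of all numbered IDs, 45.4% were under 1 FPKM in the morula and 40.4% in the blastocyst. Among the 5873 equally silent IDs not on by 8 cells, 79.8% and 74.5% were. Brief signal at the 4-cell stage with little before or after was thus the rarer course of the class. One exception is gene36, listed at 0 in every library except the 4-cell, at 15.9 FPKM, and the blastocyst, at 74.9 FPKM.

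The class on in both libraries was mostly highest at the 8-cell stage. The median was 25.8 FPKM in the 4-cell, 42.9 FPKM in the 8-cell, 9.82 FPKM in the 16-cell, 0.162 FPKM in the morula and 0.126 FPKM in the blastocyst library. The 8-cell library held the highest value of 22 of the 36, and 17 of the 36 were still at 10 FPKM or more at 16 cells. In the morula 25 (69.4%) were under 1 FPKM, beside 45.4% of all numbered IDs and 79.8% of the 5873 equally silent ones. The usual course was thus a highest level at 8 cells, which the choice favours, a lower one at 16 cells and almost none afterwards. A level under 1 FPKM in the morula was no more common than among the equally silent IDs.

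The strongest example was gene5809, listed at 0 in both oocyte libraries and at 0.0594 FPKM in the 2-cell embryo. It was at 107 FPKM in the 4-cell, 487 FPKM in the 8-cell, 133 FPKM in the 16-cell, 0.183 FPKM in the morula and 0.240 FPKM in the blastocyst library. The second, gene25396, was listed at 0 up to the 2-cell stage and stood at 60.7, 316, 148, 0.605 and 0.398 FPKM in the same 5 libraries. Both were high for 3 consecutive stages and then under 1 FPKM. An earlier end was seen for gene16602, at 78.7 FPKM in the 4-cell, 44.9 FPKM at 8 cells and 0.647 FPKM at 16 cells, and listed at 0 in all the others.

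A minority of this class went the other way. In the morula library 9 of the 36 were at 100 FPKM or more, and 8 of these were at 1000 FPKM or more. Of the 18220 numbered IDs, 1924 and 450 reached these levels. gene152, listed at 0 up to the 2-cell stage, was at 75.5 FPKM in the 4-cell, 12.0 FPKM in the 8-cell, 0.766 FPKM in the 16-cell, 16571 FPKM in the morula and 8852 FPKM in the blastocyst library. gene29411 was likewise listed at 0 up to the 2-cell stage and was at 276, 20.5, 2.46, 17476 and 15019 FPKM in the 4-cell, 8-cell, 16-cell, morula and blastocyst libraries. The 8 IDs with morula values from 1000 FPKM were at 10.7 to 31.0 FPKM in the 8-cell library and at no more than 3.0 FPKM at 16 cells. The other one, gene20183, picked out after its values were seen, had no such dip and was highest at 16 cells, at 561 FPKM.

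The class on in the 8-cell library alone mostly peaked at the 8-cell or the 16-cell stage. Its median was 2.99 FPKM in the 4-cell, 22.3 FPKM in the 8-cell, 10.3 FPKM in the 16-cell, 0.186 FPKM in the morula and 0.212 FPKM in the blastocyst library. The highest value lay in the 8-cell library for 14 of the 29 and in the 16-cell library for 13, while 18 were under 1 FPKM in the morula. A level of 10 FPKM or more at 8 cells is part of the definition of this class and not a finding, and it favours a highest value there. The 18 under 1 FPKM in the morula were 62.1% of the class, beside 45.4% of all numbered IDs and 79.8% of the 5873 equally silent ones.

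gene27614 had the highest 8-cell value of the class. It was at 0.117 FPKM in the GV oocyte, listed at 0 in the MII oocyte, and at 0.774, 4.56, 149, 2331, 205 and 2.87 FPKM in the 2-cell, 4-cell, 8-cell, 16-cell, morula and blastocyst libraries. Its level forms a single peak centred on the 16-cell embryo. gene25883 began more abruptly. It was listed at 0 through 4 cells, stood at 77.8 FPKM at 8 cells, at 121 FPKM at 16 cells and at 0.0941 FPKM in the morula, and was listed at 0 in the blastocyst. In gene27589 the peak was confined to the 8-cell library, at 48.9 FPKM, beside 1.32 FPKM at 4 cells and 0.867 FPKM at 16 cells and 0 in all 5 others.

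The 4 IDs that stayed on were not alike in level. gene7049 was under 0.2 FPKM up to the 2-cell stage and at 0.636, 17.4, 157, 62.9 and 93.5 FPKM in the 4-cell, 8-cell, 16-cell, morula and blastocyst libraries. gene17588 was on at 13.7 FPKM in the 4-cell library but at 1.29 FPKM in the 8-cell library, and then at 14.4, 335 and 213 FPKM in the 16-cell, morula and blastocyst libraries. Without a break from their onset at 10 FPKM to the blastocyst were thus 3 of the 4. The 4 IDs together had medians of 109 FPKM in the 16-cell, 87.0 FPKM in the morula and 65.7 FPKM in the blastocyst library.

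**Figure D4:**
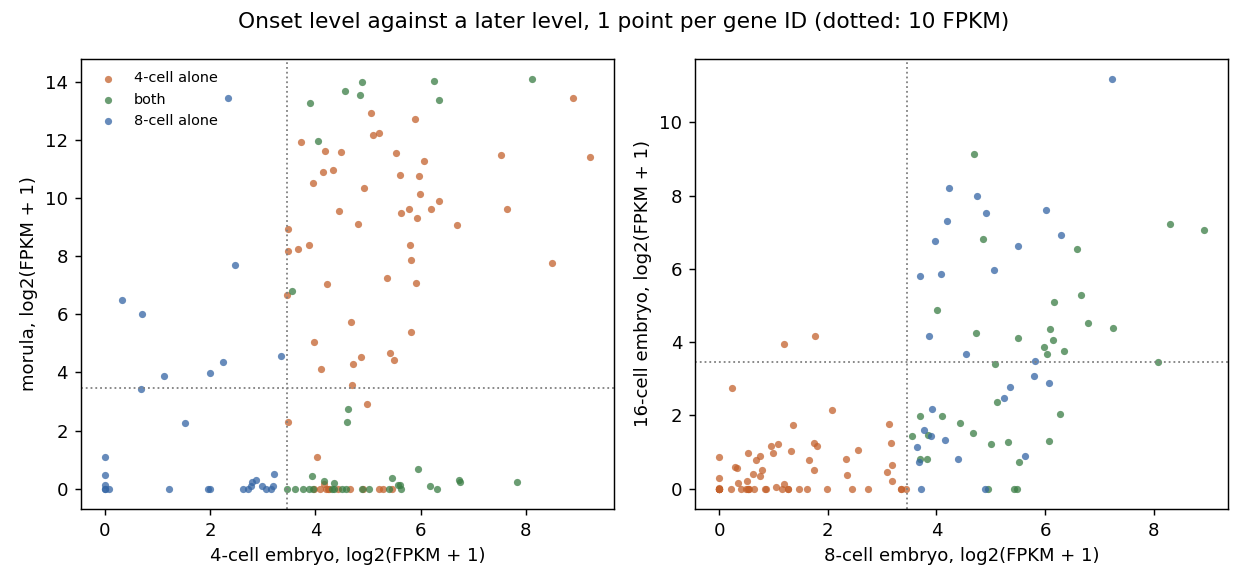
Each early-onset ID by its level at onset and later, in log2(FPKM + 1), coloured by onset class, with dotted lines at 10 FPKM. In the left panel (4-cell against morula) IDs of the 4-cell alone class spread up to 11226 FPKM in the morula, and in the right panel (8-cell against 16-cell) the IDs on at 8 cells make up all but 2 of the 34 IDs above 10 FPKM in the 16-cell library.

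From the 16-cell embryo to the morula, different IDs differed in opposite directions. An ID was called different at a step when its log2(FPKM + 1) values lay 2 or more apart and the greater value was 10 FPKM or more. By this rule 58 of the 128 (45.3%) were higher in the morula than in the 16-cell embryo, where 7.53% of all numbered IDs were. Lower were 29 of 128 (22.7%), where 6.06% of all were. Of the 58 higher IDs 48 belonged to the 4-cell alone class, which had none among the 29 lower ones. A lower call needs 10 FPKM or more at 16 cells, which only 2 of the 63 IDs of that class reached. The median log2 difference over the 128 was 0, beside -0.12 over all numbered IDs. Without IDs numbered under 1000, 25 of 91 were higher in the morula. Choosing by the 8-cell library without the 4-cell library left 10 of 65.

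The greatest increases at this step were those of gene152, 13.20 log2 units, and of gene25661, 13.19 log2 units. gene25661 was listed at 0 up to the 2-cell stage and was at 28.7, 13.2, 0.745, 16295 and 7214 FPKM in the 4-cell, 8-cell, 16-cell, morula and blastocyst libraries. The greatest decreases were those of gene6712, by a log2 difference of -8.12, and of gene20100, by -7.06. gene6712 was at 8.19 FPKM in the 4-cell, 17.7 FPKM in the 8-cell, 297 FPKM at 16 cells and 0.0709 FPKM in the morula library. gene20100 followed the same course, at 29.0, 185 and 0.394 FPKM in the 8-cell, 16-cell and morula libraries. In the 16-cell library the IDs with the greatest increases were thus under 1 FPKM, and those with the greatest decreases were at their highest. Ranking by the difference favours such IDs.

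Between the morula and the blastocyst few IDs differed by this rule. Higher in the blastocyst were 5 of the 128 (3.91%), near the 4.16% of all numbered IDs, and 6 (4.69%) were lower, beside 2.18% of all. gene23280 had the greatest increase, from 89.9 to 7332 FPKM, or 6.33 log2 units. It had been at 20 FPKM at 8 cells and 0.760 FPKM at 16 cells. gene36 was the second, by 6.25 log2 units. The greatest decrease was that of gene27614, from 205 to 2.87 FPKM (a log2 difference of -5.73), and gene27613 followed, from 14.8 to 1.27 FPKM (-2.80). Across the 128 IDs the morula and blastocyst levels had a Pearson's r of 0.96 on the log2(FPKM + 1) scale, a description over genes that share the same pair of libraries.

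The comparison of the 8-cell with the 16-cell embryo contains a library that chose the IDs and is given as description only. There 37 of 128 were lower at 16 cells (10.2% of all numbered IDs) and 10 were higher (9.94% of all). Of the 65 IDs on at the 8-cell stage, 16 were higher in the 16-cell than in the 8-cell library by any amount.

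The later levels also went with the onset level. Among the 6001 numbered IDs under 1 FPKM up to the 2-cell stage, the share at 10 FPKM or more in the morula was 2.77% where the higher of the 4-cell and 8-cell values was under 0.1 FPKM, and 6.02% from 0.1 to 1 FPKM. It was 19.9% from 1 to 10 FPKM, 50.4% from 10 to 100 FPKM and 53.3% in the 15 IDs from 100 FPKM. By this measure the share was higher in each higher bin. The 4-cell and 8-cell values differed in what they went with. By the 4-cell value, 50 of 89 IDs from 10 to 100 FPKM (56.2%) were on in the morula and 18 (20.2%) in the 16-cell library. By the 8-cell value, 16 of 58 (27.6%) were on in the morula and 26 (44.8%) in the 16-cell library. The grading did not hold for each value alone. By the 8-cell value the share on in the morula was 27.1% from 1 to 10 FPKM and 1 of 7 from 100 FPKM, and by the 4-cell value the share on at 16 cells was 1 of 10 from 100 FPKM.

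The IDs most abundant in the morula had a low signal in several earlier libraries. Of all numbered IDs, 49 were under 1 FPKM up to the 2-cell stage and at 1000 FPKM or more in the morula. In the 4-cell library 46 of these 49 were at 1 FPKM or more and 27 at 10 FPKM or more, with a median of 14.4 FPKM. In the 8-cell library 43 were at 1 FPKM or more and 9 at 10 FPKM or more, with a median of 4.45 FPKM. In the 16-cell library 25 were at 1 FPKM or more, with a median of 1.04 FPKM, beside a median of 4566 FPKM in the morula. Of all numbered IDs, 39.2%, 39.9% and 34.1% were under 1 FPKM in the 4-cell, 8-cell and 16-cell libraries. Among the 5873 equally silent IDs not on by 8 cells, 91.9%, 94.7% and 68.5% were. At 10 FPKM or more were 33.8% of all numbered IDs in the 4-cell and 32.7% in the 8-cell library. Whether the 4-cell and 8-cell signal of these IDs came from RNA of those embryos was not tested, and with 1 library per stage a property of the stage and one of the library cannot be told apart.

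In their share of each library the early-onset IDs were minor until the morula. They made up 0.585% of the FPKM sum of the 4-cell, 0.421% of the 8-cell, 0.465% of the 16-cell, 7.54% of the morula and 7.68% of the blastocyst library. The 50 IDs that reached 100 FPKM in the morula held 7.52% of that library and the other 78 held 0.0201%. This order follows from the split by morula level and is not a finding. In the 8-cell library, which did not enter the split, the order was the opposite, with 0.0456% for the 50 and 0.376% for the 78.

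Early-onset IDs often had neighbouring numbers. The sources used here do not say what the number in an ID stands for, and it serves only as a label. For 29 of the 128 early-onset IDs (22.7%) the next-numbered ID in the table was an early-onset ID too, while 0.704% of the numbered IDs without a suffix are. Smaller shares were found for IDs as silent up to 2 cells and under 10 FPKM at 4 and 8 cells that first reached 10 FPKM later. In the 16-cell library 313 did so. Of the 311 without a suffix, which are 1.71% of such numbered IDs, 3.22% had a next-numbered ID of the same kind. For the morula the share was 6.47%, with 1.28% of all being of that kind, and for the blastocyst it was 3.63%, with 1.06%. In all, 44 early-onset IDs lay in 15 unbroken runs of at least 2, and 28 of them in 7 runs of at least 3. Copies of similar sequence can share reads, and how the counting treated them is not given, so values within a run may not be separate measurements.

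The longest run, picked out after its values were seen, held 8 consecutive table IDs from gene24928 to gene24937. All 8 were under 1 FPKM up to the 2-cell stage. They were at 0.612 to 71.9 FPKM in the 4-cell, 25.9 to 151 FPKM in the 8-cell and 6.40 to 255 FPKM in the 16-cell library, and at no more than 9.76 FPKM in the morula and 1.67 FPKM in the blastocyst. A run of 4, gene16600 to gene16604, was at 13.6 to 78.7 FPKM in the 4-cell and 4.08 to 66.6 FPKM in the 8-cell library, and at no more than 1.46 FPKM at 16 cells and 0.286 FPKM in the morula. The members of a run were not all alike. In the first, gene24928 was at 0.612 FPKM at 4 cells and highest at 16 cells, at 255 FPKM, and in the second, gene16604 was at 4.08 FPKM at 8 cells.

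Runs of the other course lay elsewhere. Numbers under 1000 belong to 303 of the 18220 numbered IDs (1.66%) but to 37 of the 128 early-onset IDs (28.9%). They belong to 213 of the 6001 numbered IDs that were under 1 FPKM up to the 2-cell stage (3.55%). Of the 232 equally silent IDs that first reached 10 FPKM in the morula, 40 (17.2%) had such numbers too. In the morula 33 of the 37 early-onset IDs were at 10 FPKM or more, beside 104 of all 303. From gene29383 to gene29411 the table holds 20 IDs, of which 8 were early-onset IDs. These 8 were at 4.09 to 478 FPKM in the 4-cell, 1.51 to 20.5 FPKM in the 8-cell, at most 3.0 FPKM in the 16-cell and 1136 to 17476 FPKM in the morula library. The 303 IDs with a number under 1000 together took 1.84% of the FPKM sum of the 4-cell, 2.39% of the 8-cell, 1.01% of the 16-cell, 7.70% of the morula and 9.03% of the blastocyst library, and their part in the result was not tested beyond leaving them out. Without them 91 early-onset IDs remained, of which 35.2% were at 10 FPKM or more in the morula and 37.4% in the 16-cell library.

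**Figure D5:**
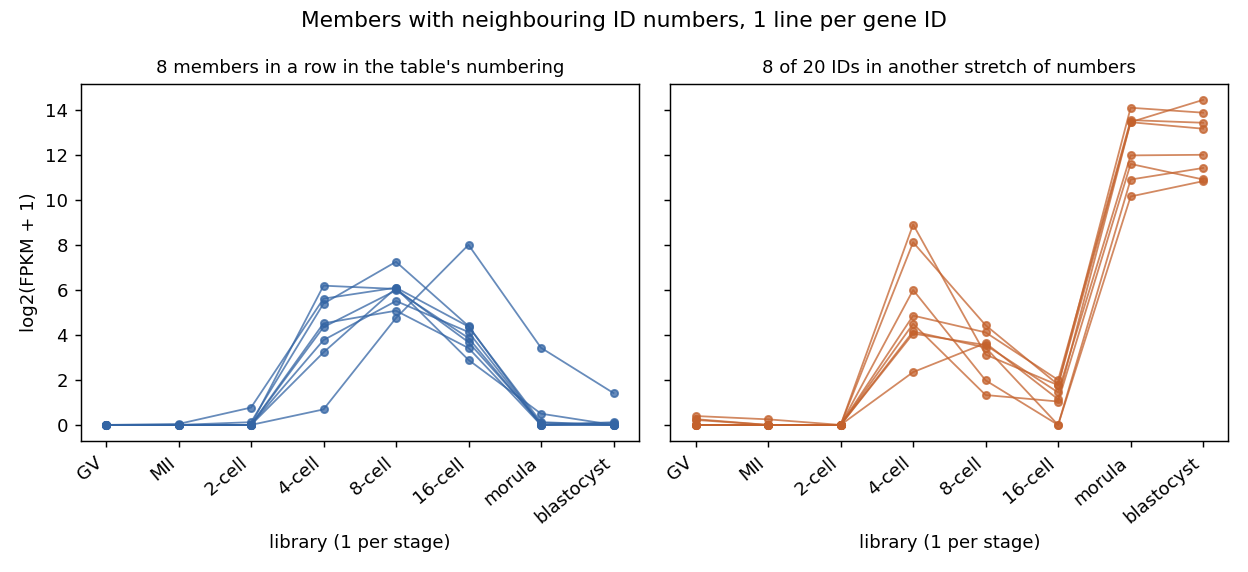
log2(FPKM + 1) by library for 8 early-onset IDs that follow each other in the table's numbering (left) and for the 8 early-onset IDs from gene29383 to gene29411 (right), 1 line per ID. On the left 7 of the lines are highest at the 4-cell or 8-cell stage and 1 at 16 cells, and none passes 9.76 FPKM in the morula. On the right all 8 are at 3.0 FPKM or less at 16 cells and at 1136 FPKM or more in the morula.

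New-gene IDs, which the authors named as new and which the choice left out, met the same levels in 45 of 10439 cases. Of these 45, 12 were at 10 FPKM or more in the 16-cell library, 9 in the morula and 5 in the blastocyst. Their medians were 12.2 FPKM in the 4-cell, 12.3 FPKM in the 8-cell, 1.59 FPKM at 16 cells and 0 FPKM in the morula library. Their share at 16 cells was close to that of the early-onset IDs and their share in the morula was lower, with no test of either. The shares of all 10439 new-gene IDs at 10 FPKM or more are not given here. Whether the 45 differ from new-gene IDs as a whole therefore cannot be read.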

How the data were processed

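The authors deposited 1 table of FPKM values per gene ID and library, per its file name. For the aligner, genome build and annotation the sources used here name nothing (not given in the sources used here), and the extraction text of the samples names a different tissue and was not used. Columns were tied to samples by description and stages were taken from titles. Early-onset IDs were chosen with earlier results of these data known. The course classes and the rule for named IDs were written with those results known too: at most 2 IDs per direction, onset class or course class, by the greatest difference or level. All 18220 numbered IDs form the denominator of each step, so no ID was dropped for low values. Differences are on the log2(FPKM + 1) scale, which understates those of low IDs. The edges of the choice, the runs of ID numbers and the split at 100 FPKM were examined after values were seen. So were the 49 IDs silent up to the 2-cell stage and at 1000 FPKM or more in the morula. Correlations are across genes and carry no p. Because there are no counts, neither intervals nor floors are given for any level. An interval over IDs is used below only to label changed percentages. The rules were tested on simulated data. Python 3.11.15, pandas 2.3.3, NumPy 2.4.6, SciPy 1.17.1 and matplotlib 3.10.9 were used. Alternatives covered the limits of the choice, library scaling, the IDs included, the pseudocount and the FPKM minimum.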

Additional observations from a re-analysis of the deposited data

How the results depend on the processing

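No paired analysis was possible because each stage has 1 library. Leaving out the 4-cell library from the choice and leaving out numbers under 1000 were chosen after seeing the data. A percentage is called moved here when it left the 95% binomial interval of the reported value over IDs. This interval counts IDs as independent, which neighbours in a run may not be. It is a yardstick for these labels and not a measure of spread between libraries. A count is called moved when it changed over 1.5 times. The cause was not tested except where fewer IDs enter by construction. Of 190 values recomputed under 15 settings, 151 were not moved. Among the 151 are 16 that could not move, from leaving out IDs with a suffix, which no early-onset ID has. Neither scaling moved the number of IDs (153 after rescaling to the same sum and 125 with median-of-ratios scaling) or any course. Rescaling did move the number that was higher at the blastocyst than the morula stage to 8.
With a silent level of 0.1 FPKM there were 76 IDs, of which 0% kept their level throughout; 32 were higher and 18 lower in the morula than at 16 cells, and 2 lower in the blastocyst than in the morula. Requiring 10 FPKM in both libraries left 36 IDs, with 47.2% on at 16 cells, 25% in the morula and 25% in the blastocyst, 5.56% with a gap and 38.9% ending at 16 cells; 8 were higher and 17 lower in the morula than at 16 cells, and 0 higher and 0 lower in the blastocyst than in the morula. Choosing by the 8-cell library without the 4-cell library left 65 IDs, with 49.2% on at 16 cells, 26.2% in the morula and 20% in the blastocyst, 4.62% with a gap, 30.8% ending at 16 cells and 47.7% mixed; 10 were higher in the morula than at 16 cells, and from morula to blastocyst 1 was higher and 3 lower. The gap course thus rests on the 4-cell library. Without numbers under 1000, 35.2% of the IDs were on in the 4-cell library alone, 17.6% had a gap, 37.4% were on at 16 cells, 35.2% in the morula and 27.5% in the blastocyst, 25 were higher in the morula than at 16 cells and 1 was higher in the blastocyst than in the morula. An onset level of 5 FPKM put 15.8% in the 8-cell alone class and gave 9 that were higher at the blastocyst than the morula stage, one of 20 FPKM put 20.9% in the class on in both, including new-gene IDs gave 37.0% on in the blastocyst, and a minimum of 30 FPKM gave 17 lower in the morula than at 16 cells and 3 lower in the blastocyst than in the morula.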
